A study of Homo sapiens with 8 samples.

Results

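The epithelial keratin genes described here are KRT7, KRT8, KRT17, KRT18, KRT19, KRT20, KRT23 and KRT80, 8 of the 20033 protein-coding genes of the RefSeq table of GRCh38.p14 on chromosomes 1 to 22, X and Y. They were chosen by name, as keratins of epithelial cells, with earlier results of these data known. For each gene, every deposited peak that overlapped its annotated span, or the 10 kb on either side, was collected from the 8 peak lists of the study. KRT80, KRT7, KRT8 and KRT18 lie on chromosome 12 and KRT20, KRT23, KRT19 and KRT17 on chromosome 17. KRT8 and KRT18 are neighbours whose annotated spans share 1006 bp, so that a peak near both is listed under each gene but counted 1 time in any total.

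The libraries are CUT&RUN profiles of HCT-116, a human colorectal carcinoma line, in which a nuclease tethered by an antibody cuts out the DNA around the bound protein. The antibodies were against BRG1, the ATPase of SWI/SNF chromatin remodelling complexes, and against the tag on Flag-actin. For each antibody there were 2 libraries of SETD3 KO cells, KO1 and KO2, set against 1 library of SETD3 CT cells, called control cells below, and 1 IgG library of control cells as background. SETD3 methylates actin on a histidine. The labels leave unstated if KO1 and KO2 came from different clones or cultures, what drives the Flag-actin construct, or whether the IgG library of the Flag arm, whose title also holds the word Empty, carried it. With 1 control library for each antibody no comparison here has a test, and the only spread that can be given is that between KO1 and KO2.

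Keratins build the cytoplasmic intermediate filaments of epithelial cells, and every filament needs a type I partner joined to a type II partner. KRT8 (type II) and KRT18 (type I) form the basic filament of simple epithelia such as the gut lining, where KRT19 (type I, lacking most of the tail of other keratins) joins them and KRT20 (type I) marks differentiated cells. KRT7 (type II) is typical of ductal and glandular epithelia, KRT17 (type I) is induced in wounds and in stressed epithelium, KRT80 (type II) lies close to desmosomes in differentiating cells, and KRT23 is a less studied type I keratin. SWI/SNF complexes shift and evict nucleosomes at promoters and enhancers, and BRG1 peaks show where such complexes were recovered with DNA. CUT&RUN does not measure how strongly a keratin gene was expressed.

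Starts of transcription with a BRG1 peak beside them are shown first, since they place the peaks on known sequence. The RefSeq promoter table (GRCh38.p14, 1 start per entry) matched 2 of the 8 genes, KRT8 and KRT20, and also KRT7-AS, a long non-coding RNA antisense to KRT7 and annotated inside its span. Each line gives the 250 bases before the start, 5′ to 3′ on the strand of the gene, with the bases covered by a BRG1 peak of control cells in capitals.
KRT8 upstream, chr12:52926470-52926719, minus strand: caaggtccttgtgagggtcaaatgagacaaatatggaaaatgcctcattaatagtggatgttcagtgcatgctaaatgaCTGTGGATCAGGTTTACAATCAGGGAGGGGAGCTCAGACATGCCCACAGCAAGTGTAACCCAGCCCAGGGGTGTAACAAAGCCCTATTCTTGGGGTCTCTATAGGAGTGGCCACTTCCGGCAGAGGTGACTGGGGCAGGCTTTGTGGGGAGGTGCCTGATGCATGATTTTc
KRT7-AS upstream, chr12:52247449-52247698, minus strand: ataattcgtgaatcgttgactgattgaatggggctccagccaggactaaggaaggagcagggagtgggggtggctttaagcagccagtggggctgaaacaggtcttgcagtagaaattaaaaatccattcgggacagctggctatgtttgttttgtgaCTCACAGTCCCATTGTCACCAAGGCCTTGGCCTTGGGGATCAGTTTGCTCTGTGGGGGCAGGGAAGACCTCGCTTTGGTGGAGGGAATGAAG

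At KRT8 the control BRG1 peak covered 170 of these 250 bases, and no peak of any other list lay in the window. At KRT7-AS a BRG1 peak covered 132 of the 250 bases in KO2, against 92 in control cells, and both peaks ran on over the start itself at 52247448. BRG1 KO1, the 3 Flag-actin lists and both IgG lists had none there. The upstream window of KRT20 (chr17:40885243-40885492) held no peak of any list. For comparison, a BRG1 peak touched the same window at 2.04% (KO1), 5.76% (KO2) and 16.2% (control) of the 35116 promoters of the table, against 0.365% for the IgG list of the BRG1 arm.

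The letters TGANTCA, the core that AP-1 factors recognise, read the same on both strands and occur in 6.57% of all promoters over the same 250 bases. Of the 3 windows, that of KRT7-AS held them 1 time, as TGACTCA at chr12:52247537-52247543. All 7 bases lay inside the BRG1 KO2 peak, and 4 of the 7 inside the control peak. The letters TATAAA, searched on both strands, were in none of the 3 windows and in 10.7% of all promoters. G and C made up 50.4% of the KRT8 window, 51.6% of the KRT7-AS window and 41.2% of the KRT20 window, against a median of 58.0% over all promoters.

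The BRG1 lists of SETD3 KO cells held fewer peaks around the 8 keratins in all than the list of control cells. Over all 8 windows the BRG1 lists held 8 peaks in KO1 and 17 in KO2 (12.5 ± 6.36, SD, n = 2), against 40 in control cells and 5 in the IgG list. Peaks outside both IgG lists numbered 4 in KO1 and 13 in KO2, against 35 in control cells, while those that overlapped an IgG peak were nearly constant at 4, 4 and 5. Both KO counts were below the control count, and KO1 was the lower of the KO libraries. The peaks covered 0.97 kb in KO1, 2.36 kb in KO2 and 11.53 kb in control cells.

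The whole lists were also shorter in KO cells, at 23784 peaks in KO1 and 32038 in KO2, against 53270 in control cells. The keratin peaks outside IgG stood at 0.114 of the control number in KO1 and 0.371 in KO2, and the mean over all genes, counted the same way, at 0.172 and 0.361. KO2 thus lay close to the ratio of all genes, and KO1, with 4 peaks against 35, below it. Each BRG1 list was also shortened to its 23784 peaks of highest total signal, and peaks that overlap IgG were counted too. The KO mean was then 8.5 keratin peaks against 18 in control cells. Ranked by maximum signal in place of total signal, the same shortened lists gave 8.5 against 10.

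Counted by gene, 3 of the 8 keratins in KO1 and 6 in KO2 had a BRG1 peak outside IgG, against 6 in control cells. The corresponding shares of all protein-coding genes were 19.7% in KO1, 35.2% in KO2 and 61% in control cells. At 5 of 8 keratins (KRT80, KRT7, KRT8, KRT18 and KRT19) both KO lists held fewer such peaks than the control list, which was the case at 47.1% of all genes. With all peaks counted it was again 5 of 8, against 48.3%. No keratin had such peaks in control cells and in neither KO list (26.2% of all genes), and none had them in both KO lists but not in control cells (0.864%). Counting all peaks, 6 of 8 in KO1 and 7 of 8 in KO2 had at least 1, against 7 of 8 in control cells and 4 of 8 in the IgG list. Over all genes these shares were 44.3%, 55.5%, 72.4% and 42.6%. The control list held more BRG1 peaks than the IgG list at 6 of 8 keratins and at 57.9% of all genes. In both arms the name of the IgG list holds a stricter caller threshold (0.005, against 0.01 for the antibodies). Antibody and IgG counts are therefore not at the same threshold.

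**Figure D1:**
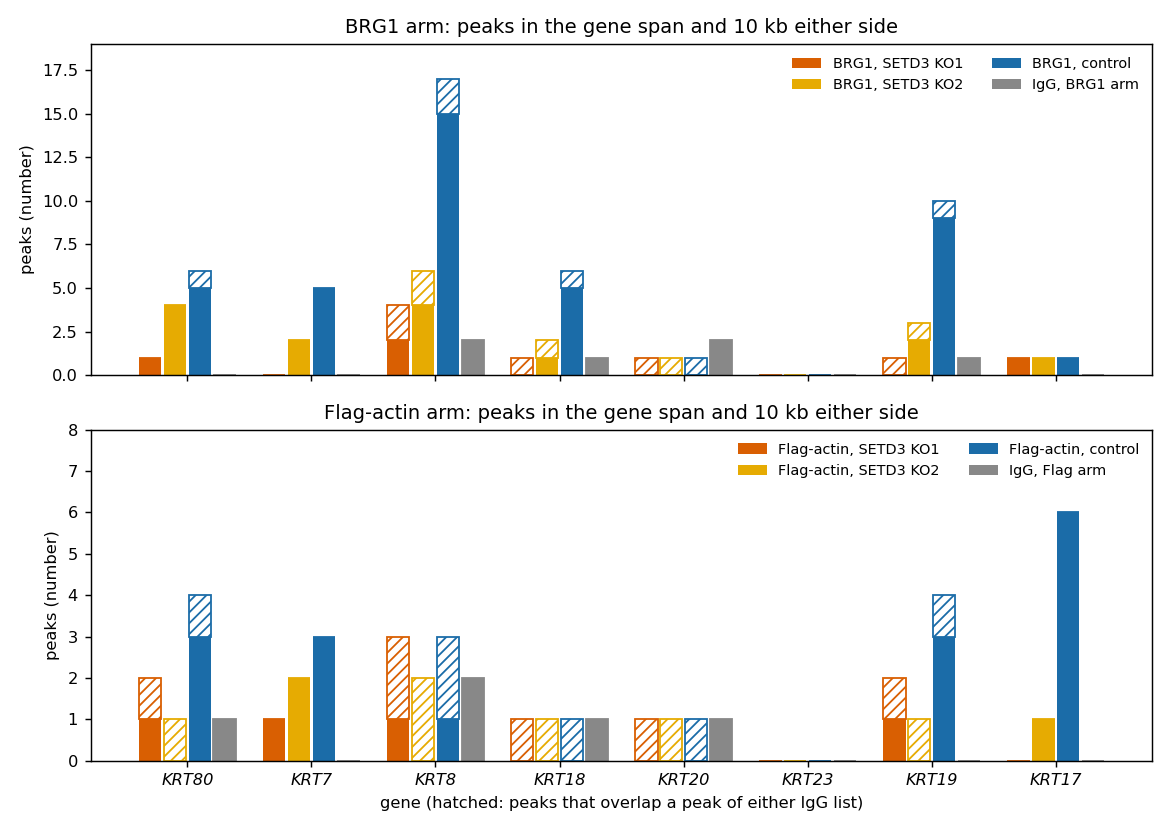
Number of peaks (y axis) in the annotated span of each keratin gene plus 10 kb either side (x axis), by library, for the BRG1 arm (top) and the Flag-actin arm (bottom), with peaks that overlap either IgG list hatched. KRT8 and KRT19 hold 17 and 10 BRG1 peaks in control cells, KRT23 holds none in any list, and the only peaks at KRT20 overlap IgG.

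KRT8, the type II partner of the simple-epithelium pair (chromosome 12, 52897191 to 52949860), held the most of these peaks. It had 4 BRG1 peaks in KO1 and 6 in KO2, against 17 in control cells and 2 in the IgG list. Outside IgG the numbers were 2, 4 and 15, and 0.529% of all genes had 15 or more such peaks in control cells. Its window of 72.67 kb is at least as long as that of 70.1% of genes, and over that length the 15 control peaks came to 2.06 per 10 kb. In lists of equal length, all peaks at KRT8 numbered 3.5 in the KO mean against 9 in control cells by total signal, and 3.5 against 4 by maximum signal.

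Around the KRT8 start shown above, the only one located for its 4 listed transcripts, the widest BRG1 peaks were in the control list. Peaks were narrower in the KO lists as a whole, with a median width of 40 bp in KO1 and 40 bp in KO2, against 140 bp in control cells. These medians include peaks that overlap either IgG list, which were 71.4% of KO1, 60.1% of KO2 and 36.9% of control peaks. Outside IgG, the median width over the 8 keratins was 210 bp in KO1 and 140 bp in KO2, against 230 bp in control cells. Downstream of the start, KO1 held peaks of 240 and 210 bp and KO2 peaks of 180 and 120 bp. All lay within a control peak of 1280 bp at 52924871 to 52926150, which stood 319 bp from the start. Upstream of the start, KO2 held a peak of 140 bp (52927331 to 52927470) and KO1 none, within a control peak of 830 bp at 52926971 to 52927800. The stretch of 170 bp in capitals above, from 2 to 171 bp upstream, had a peak in control cells alone.

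The total signal of each peak is the authors' value, and its percentile is the share of its own list at or below it. By this measure the KO1 peaks downstream of the start stood at the 37.3 and 44.5 percentiles of their list. The KO2 peaks there stood at the 21.0 and 12.7 percentiles of the KO2 list, and the control peak around them at the 89.9 percentile of the control list. Upstream, the KO2 peak stood at the 9.86 percentile of its list and the control peak at the 87.9 percentile. The control peak in the sequence shown was weaker, at the 26.8 percentile. Percentiles of lists that differ in length cannot be set against each other, so no change is read from them.

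More than 10 kb downstream of that start, 6 BRG1 control peaks, of which 4 were inside KRT8 and 2 beyond its lower end, had no counterpart in either KO list. They included a peak of 460 bp at 52904901 to 52905360 (75.1 percentile) and one of 570 bp at 52907661 to 52908230 (78.9 percentile), the highest control peak at KRT8 without a KO counterpart. Altogether 12 of the 15 control peaks at KRT8 outside IgG had none in KO1 or KO2. The RefSeq gene table lists 4 transcripts of KRT8, whose other starts were not located here. Distances are from the start shown, so whether any of these peaks lies at another start of KRT8 is not known.

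KRT18, the type I partner (chromosome 12, 52948855 to 52952906), had 1 BRG1 peak in KO1 and 2 in KO2, against 6 in control cells and 1 in IgG, all of them also within the window of KRT8. In lists of equal length the KO mean was 1.5 against 3 in control cells by total signal, and 1.5 against 1 by maximum signal. Of the 5 control peaks outside IgG, 3 lay below KRT18 and inside the annotated span of KRT8, from 52945201 to 52946900. The middle place had no peak in KO1 and one of 140 bp in KO2, against 470 bp in control cells at 52945921 to 52946390 (81.0 percentile). A peak of 180 bp at 52949001 to 52949180 began 146 bp inside the lower annotated end of KRT18, within the stretch shared with KRT8, and had a counterpart in neither KO list.

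Both genes also carried peaks that every library showed. One of 90 to 100 bp at 52935011 to 52935110, inside KRT8, was in all 8 lists, at percentiles between 75.5 and 95.3. Another, of 30 to 130 bp between 52949951 and 52950080, inside KRT18, was likewise in all 8 lists, at percentiles between 51.6 and 79.5. Since IgG showed both sites, they are no measure of BRG1. A control BRG1 peak met by a peak of every other list occurred at 3 of 8 keratins (KRT8, KRT18 and KRT20) and at 24.4% of all genes.

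**Figure D2:**
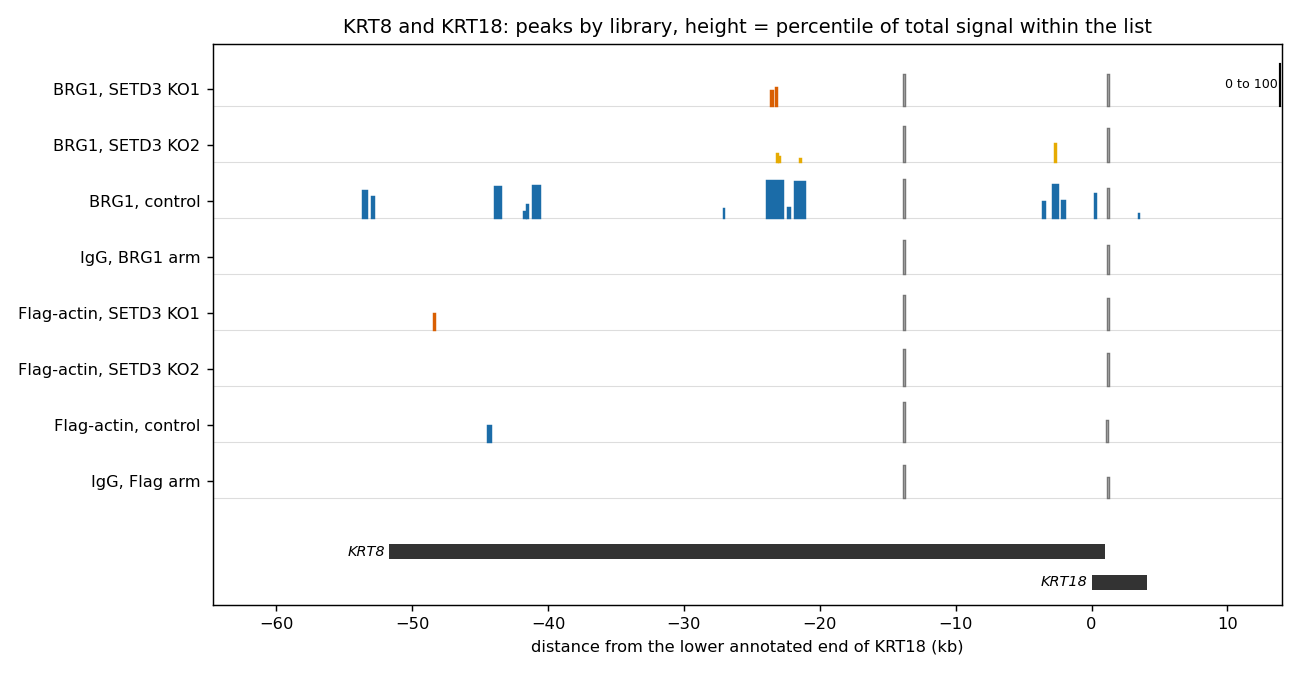
Peaks at KRT8 and KRT18 in the 8 libraries, against the distance in kb from the lower annotated end of KRT18. Bars stand at each peak with the height of its percentile within its own list (scale bar 0 to 100), are drawn at least 120 bp wide, and are grey where the peak overlaps either IgG list. BRG1 peaks of KO1 outside IgG lie at 1 place, those of control cells spread along the whole of KRT8, and 2 grey peaks stand in every library.

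KRT19, the type I keratin that joins them (chromosome 17, 41523617 to 41528308), had 1 BRG1 peak in KO1 and 3 in KO2, against 10 in control cells and 1 in IgG. Outside IgG these were 0, 2 and 9, and 1.93% of all genes had 9 or more in control cells. Per length this was the densest of the 8 genes, with 3.64 control peaks outside IgG per 10 kb. In lists of equal length, by either signal and with all peaks counted, the KO mean was 2 peaks against 3 in control cells. Above the upper annotated end, KO2 had a peak of 190 bp within the strongest control peak, of 480 bp at 41530021 to 41530500 (85.9 percentile), which began 1713 bp from that end.

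Beside that end KO2 had a peak of 260 bp, against one of 320 bp across it in control cells (41528231 to 41528550). The KO2 peak stood at the 60.8 percentile of the KO2 list and the control peak at the 38.4 percentile of the control list. The lists differ in length, so no change is read from these ranks. On the other side, 5 control peaks stood between KRT19 and its neighbour KRT15, a keratin of basal cells, from 41520781 to 41523030. None of the 5 had a counterpart in KO1 or KO2, and 1 of them, 450 bp wide at the 81.4 percentile, was the highest of all control keratin peaks without one. The only KO1 peak at KRT19, of 30 bp at 41526531 to 41526560, overlapped IgG and was in 7 of the 8 lists.

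KRT80 (chromosome 12, 52168996 to 52192014) had KO counterparts at 3 of its 5 control BRG1 peaks outside IgG. In all it had 1 BRG1 peak in KO1 and 4 in KO2, against 6 in control cells and 0 in the IgG list of its arm. In lists of equal length the KO mean was 1.5 against 2 in control cells by total signal, and 1 against 2 by maximum signal. Just above the upper annotated end there was a peak of 210 bp in KO1 (47.5 percentile) and of 220 bp in KO2 (45.5 percentile), both within a control peak of 550 bp at 52191991 to 52192540 (85.1 percentile). Besides the wide KRT8 peak, that was the only control BRG1 peak outside IgG with a counterpart in both KO lists at any of the 8 genes. A further 2 control peaks below the gene, at 52163941 to 52164230 and 52164271 to 52164430, had counterparts in KO2 alone.

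**Figure D3:**
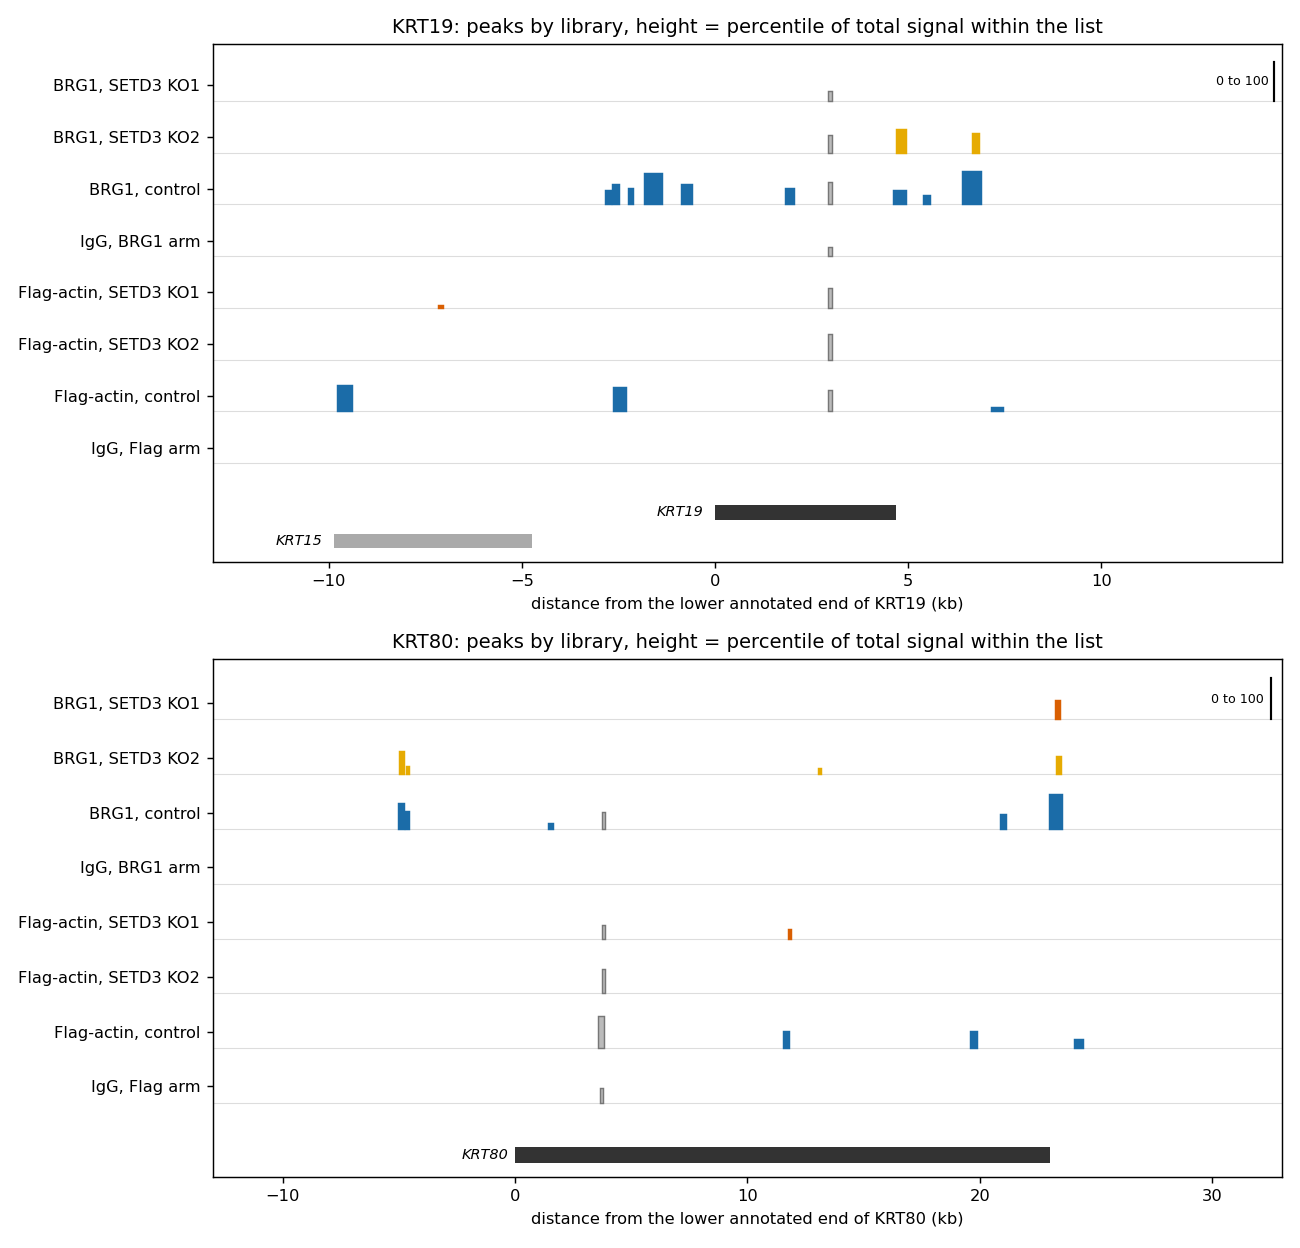
Peaks at KRT19 (top) and KRT80 (bottom) in the 8 libraries, against the distance in kb from the lower annotated end of each gene, drawn with heights as percentiles within each list, a least width of 120 bp, and grey where the peak overlaps either IgG list. At KRT80 the KO1 and KO2 lists hold a BRG1 peak just above the upper end, within a control peak that crosses it, and at KRT19 the control peaks between KRT15 and KRT19 have no KO counterpart.

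The remaining keratins held fewer BRG1 peaks. KRT7 (chromosome 12, 52233243 to 52255853) had 0 in KO1 and 2 in KO2, against 5 in control cells and 0 in IgG. In lists of equal length the KO mean was 0 against 2 in control cells by total signal, and 0 against 0 by maximum signal. Its highest control peak, of 180 bp at 52243941 to 52244120 (64.4 percentile), had a counterpart in neither KO list. The single control peak with one in KO2 was that at the start of KRT7-AS. The KO2 peak lay at 52247441 to 52247580 (21.0 percentile of the KO2 list). The control peak lay at 52247361 to 52247540 (14.4 percentile of the control list).

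KRT17 (chromosome 17, 41619442 to 41624575) had 1 BRG1 peak in KO1, 1 in KO2 and 1 in control cells, none inside the gene. The KO2 peak, of 100 bp, was inside the control peak of 400 bp at 41612821 to 41613220 (70.4 percentile), and the KO1 peak of 80 bp was elsewhere. The control peak lay 6222 bp below KRT17 but 54 bp above the upper end of KRT16, the neighbouring stress-induced keratin.

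KRT20 (chromosome 17, 40875889 to 40885242) had 1 peak in each BRG1 list, all at 40873521, 20 to 30 bp wide, and the same site was in all 8 lists at percentiles between 82.4 and 91.9. No BRG1 or Flag-actin peak outside IgG was detected at KRT20. KRT23 (chromosome 17, 40922700 to 40937646) had no peak in any of the 8 lists. A list holds only what passed the caller's threshold, so weaker binding at these genes is not measured.

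Of the 35 control BRG1 peaks outside IgG over the 8 genes, 2 had a KO1 counterpart, 10 a KO2 counterpart and 25 neither (71.4%). For the whole control list 83.1% had neither, and the single shares were 5.71% of keratin peaks against 7.16% of all peaks in KO1, and 28.6% against 13.7% in KO2. Keratin peaks with a counterpart were wider and ranked higher, with a median of 435 bp and the 75.7 percentile, than those without, at 210 bp and the 41.5 percentile. The whole list showed the same order, at 300 bp and the 65.7 percentile against 200 bp and the 32.6 percentile.

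Some of the control peaks had a total signal below any in a KO list. The lowest total signal in the KO1 list was 6228 and in the KO2 list 5182, and no source used here gives how these values were scaled between libraries. Taken as they stand, 18 of the 35 control peaks reached the KO1 value, and 2 of the 18 had a KO1 counterpart (11.1%, against 16.8% over the whole list). For KO2, 27 of 35 reached the value and 9 of the 27 had a counterpart (33.3%, against 21.8%). The part of depth and scaling in the missing peaks was not tested.

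Flag-actin peaks at the keratins were also fewer in both KO lists than in the control list. The Flag-actin lists held 9 peaks in KO1 and 8 in KO2 (8.5 ± 0.707, SD, n = 2), against 21 in control cells and 4 in the IgG list of the Flag arm. Outside both IgG lists there were 4 in KO1 and 3 in KO2, against 16 in control cells, which were 0.25 and 0.188 of the control number, where the mean over all genes stood at 0.355 and 0.597. In 4 of 8 keratins (KRT80, KRT7, KRT19 and KRT17) both KO lists held fewer peaks outside IgG than the control list, against 29.2% of all genes, and the same 4 did so with all peaks counted, against 28.1%. None of the 8 had such peaks outside IgG in control cells and in neither KO list (13.4% of all genes).

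By gene, 4 of 8 keratins in KO1 and 2 in KO2 had a Flag-actin peak outside IgG, against 5 in control cells. The shares over all genes were 30.4% in KO1, 41.8% in KO2 and 47.4% in control cells. Counting all peaks, 6 of 8 in KO1 and 7 of 8 in KO2 had at least 1, against 7 of 8 in control cells and 4 of 8 in IgG, where the shares of all genes were 49.6%, 59%, 60.9% and 40.9%. The control list held more Flag-actin peaks than the IgG list at 5 of 8 keratins and at 43.2% of all genes. With lists shortened to equal length by total signal, and all peaks counted, the KO mean was 6.5 peaks against 14 in control cells. By maximum signal it was 7 against 14.

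KRT17, where BRG1 had a single peak, held the most Flag-actin peaks of the 8 genes in control cells, with 0 in KO1 and 1 in KO2, against 6 in control cells and 0 in IgG. Of the control peaks, 5 lay below the gene from 41611151 to 41616910, the first inside KRT16 and the second across its upper end. The strongest was that second one, of 400 bp at 41612431 to 41612830 (76.5 percentile). The KO2 peak, 230 bp at 41616321 to 41616550, overlapped none of the 6.

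KRT19 held 2 Flag-actin peaks in KO1 and 1 in KO2, against 4 in control cells and 0 in IgG of the Flag arm. KRT80 held 2 in KO1 and 1 in KO2, against 4 in control cells and 1 in IgG, and KRT7 held 1 in KO1 and 2 in KO2, against 3 in control cells and 0 in IgG. Outside both IgG lists, KRT19 and KRT80 each had 1 in KO1 and 0 in KO2, against 3 in control cells. The counts at KRT7 were the same outside IgG. At KRT8 the counts were 3 in KO1 and 2 in KO2, against 3 in control cells and 2 in IgG, so that 1 control peak lay outside IgG, at 52904401 to 52904650. KRT18 and KRT20 had 1 peak in each Flag-actin list, at the sites shared by all 8 libraries.

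Counterparts were rare. Of the 16 control Flag-actin peaks outside IgG, 1 overlapped a KO1 peak (inside KRT80, 52180531 to 52180780), 1 overlapped a KO2 peak (52233571 to 52233810, which began 328 bp inside the lower end of KRT7) and 14 neither (87.5%, against 93.7% of the whole control list). Every one of the 16 had a total signal above the lowest value of either KO list. The same held for all 25473 control Flag-actin peaks outside IgG, so it does not set the keratin peaks apart. The lowest total signal was 4650 in KO1 and 5879 in KO2, against 25771 in control cells, and whether the lists share a scale is not known.

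**Figure D4:**
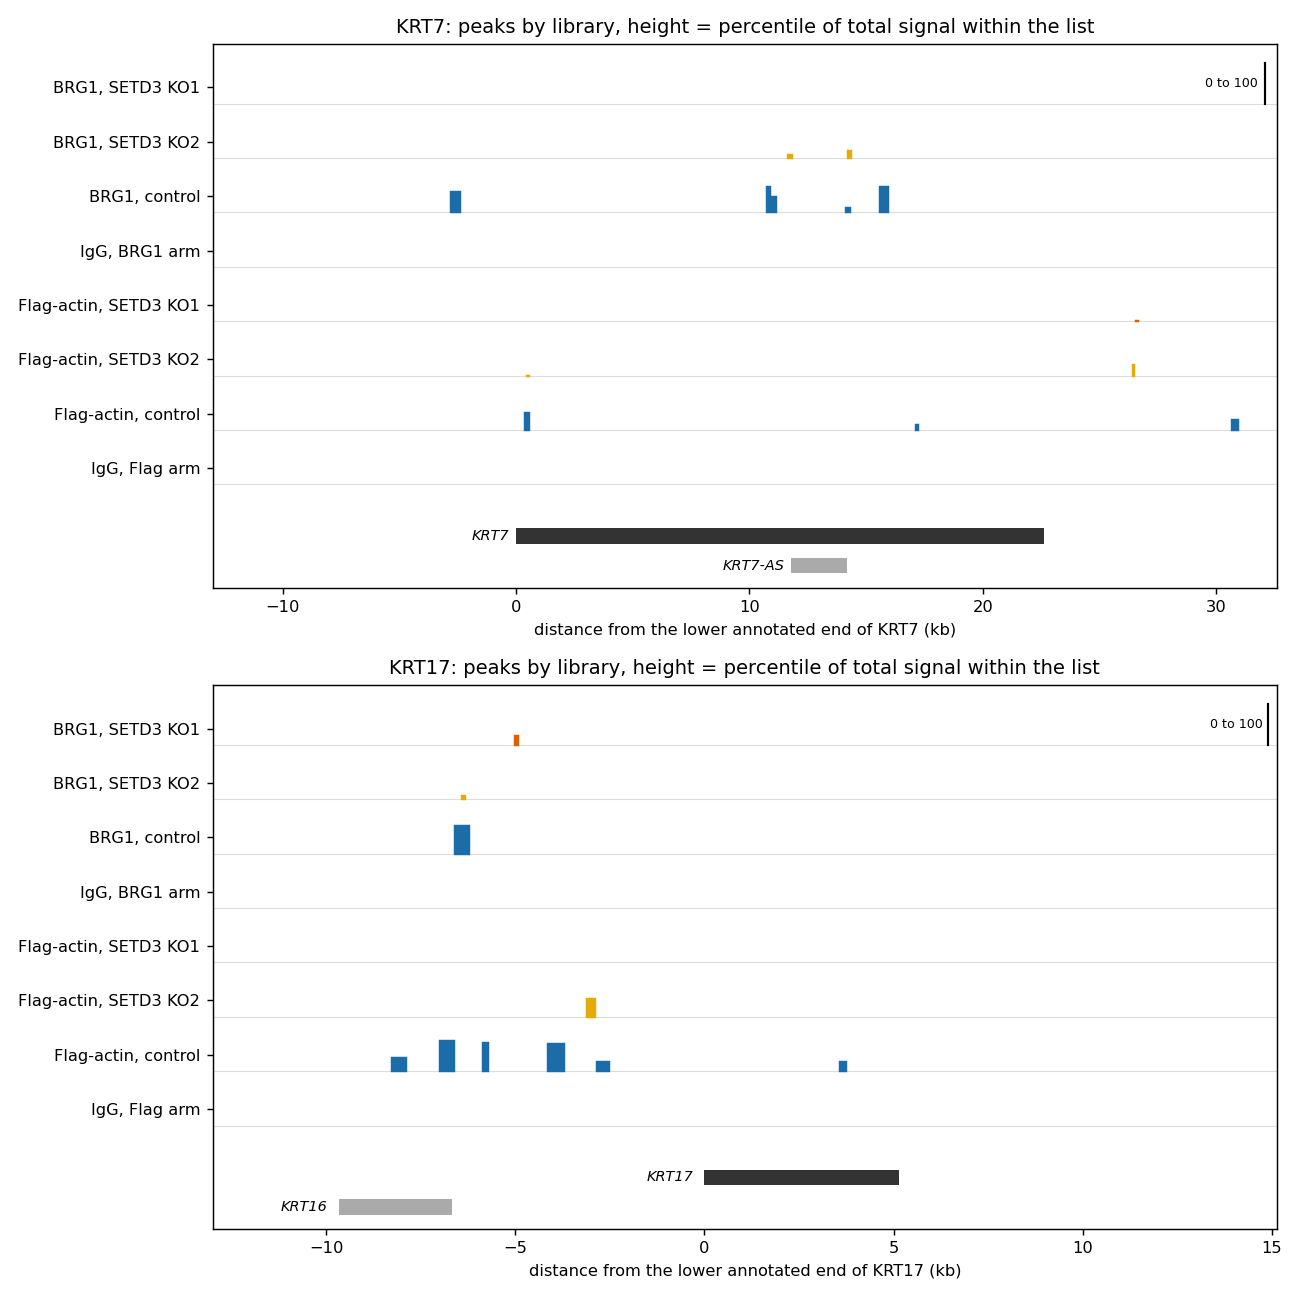
Peaks at KRT7 (top) and KRT17 (bottom) in the 8 libraries, against the distance in kb from the lower annotated end of each gene, with heights as percentiles within each list and a least width of 120 bp. At KRT17 the 6 Flag-actin peaks of control cells lie at KRT16, between KRT16 and KRT17, and in KRT17, and a BRG1 peak of KO2 and of control cells meets the start of KRT7-AS inside KRT7.

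BRG1 and Flag-actin peaks met mainly at background sites. In KO1, 4 of 8 BRG1 peaks (50%) overlapped 4 of 9 Flag-actin peaks (44.4%), and in KO2, 4 of 17 (23.5%) overlapped 4 of 8 (50%), all of them at IgG sites. In control cells 7 of 40 BRG1 peaks (17.5%) overlapped 7 of 21 Flag-actin peaks (33.3%), and 5 of the 7 overlapped IgG. By gene, 6 of 8 keratins had such an overlap in control cells, against 33.6% of all genes. The other 2 were at 41520951 to 41521140, between KRT15 and KRT19, where 170 bp were shared, and at KRT16, where 10 bp were shared. Such an overlap outside IgG occurred in the windows of KRT19 and KRT17, 2 of 8 keratins, against 5.65% of all genes.

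Merged over all lists, the peaks in the 8 windows formed 63 separate regions, of which 45 were in a single list and 3 in all 8. Among the 38 regions with BRG1 but no IgG, 1 was in KO1 alone, 2 in KO2 alone, 2 in both KO and control, 8 in KO2 and control and 25 in control cells alone. No region had BRG1 in both KO lists without control. Of the 21 regions with Flag-actin but no IgG, 3 were in KO1 alone, 2 in KO2 alone, 1 in KO1 and control, 1 in KO2 and control and 14 in control cells alone.

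The other keratins of the same clusters, 46 genes of epidermis, hair and other stratified epithelia, were counted in the same way. BRG1 peaks outside IgG stood at 5 of 46 (10.9%) in KO1 and 5 of 46 in KO2, against 21 of 46 (45.7%) in control cells, below the all-gene shares given above in each library. Their windows are shorter, with a median of 26.3 kb against 32.2 kb for the 8 keratins and 44.1 kb for all genes. Per length, and with all peaks counted, also those that overlap IgG, medians were taken in control cells. They were 1.28 BRG1 peaks per 10 kb for the 8 keratins and 0.315 for the other keratins, against 0.241 for all genes.

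The other keratins with the strongest control peaks were KRT86 and KRT81, hair keratins that share 1 peak at the 83.3 percentile, and KRT15, whose peak is the one between KRT15 and KRT19 described above. Flag-actin peaks outside IgG stood at 10 of the 46 (21.7%) in KO1 and 13 (28.3%) in KO2, against 21 (45.7%) in control cells.

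Genes for proteins that anchor keratin filaments, chiefly desmosomal proteins and plakins, had BRG1 peaks outside IgG at 6 of 15 (40.0%) in KO1 and 9 (60.0%) in KO2, against 12 (80%) in control cells. The highest control peaks were at PLEC (87.6 percentile), which encodes the linker plectin, DST (87.2), which encodes dystonin, and PPL (84.6), which encodes periplakin. PLEC held 1 such peak in KO1 and 10 in KO2, against 19 in control cells. Windows of this list are long, with a median of 69.5 kb. Its Flag-actin counts were 6 of 15 in KO1 and 10 in KO2, against 9 in control cells.

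Genes of other intermediate filaments had BRG1 peaks outside IgG at 6 of 15 (40.0%) in KO1 and 8 (53.3%) in KO2, against 10 (66.7%) in control cells. LMNA, the gene of the nuclear lamins A and C, held 1 in KO1 and 10 in KO2, against 19 in control cells, with its highest control peak at the 89.9 percentile. SYNM and INA, of the muscle and neuronal filament proteins synemin and internexin, followed with control peaks at the 81.7 and 80.7 percentiles. The Flag-actin counts were 6 of 15 in KO1 and 6 in KO2, against 7 in control cells.

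**Figure D5:**
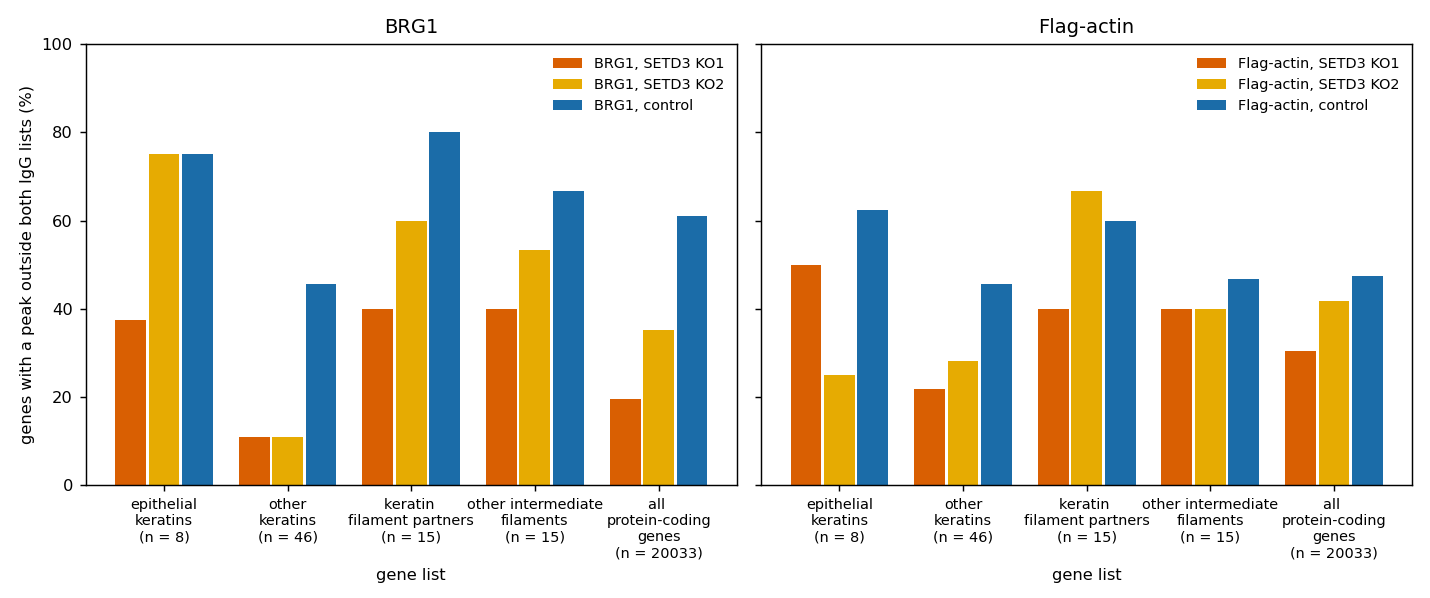
Share of genes (y axis, %) with at least 1 peak outside both IgG lists in the span plus 10 kb either side, for BRG1 (left) and Flag-actin (right), by gene list and library. For BRG1 the 8 keratins stand at 37.5% (KO1), 75.0% (KO2) and 75.0% (control), and the other keratins at 10.9%, 10.9% and 45.7%, against 19.7%, 35.2% and 61% of all genes.

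The genes most like a keratin were sought by the highest percentile of any peak in the window in the 3 BRG1 and 3 Flag-actin lists, as the Euclidean distance over these 6 libraries. For KRT80 they were FAM53A (distance 9.0) and SYTL3 (15.2), for KRT7 LGALS1 (9.91) and NRP2 (10.4), and for KRT17 MXRA8 (13.7) and PSMD11 (16.2). For KRT8 they were WWP2 (1.26) and NEK4 (1.79), for KRT18 NAA20 and CRNKL1 (3.80 each), and for KRT20 PACRGL (1.40) and PARVA (1.81). At KRT8, KRT18 and KRT20 the highest peak was in most of these libraries the one shared with IgG, so these distances rest largely on IgG sites. For KRT80 the highest peak in each of the 3 Flag-actin lists also overlapped IgG, while its highest BRG1 peaks did not.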

How the data were processed

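CUT&RUN peaks of BRG1, Flag-actin and IgG in HCT-116 cells were analysed from 8 lists, 1 for each library. The submitters' processing notes list hg38, SEACR, MACS2, BWA, bedtools 2.30.0, Trim Galore 0.4.5, deepTools, SAMtools and FastQC 0.12.0, with no roles or settings. The deposited lists give the total signal and maximum signal of each peak, and no source used here gives their normalization. The names of the lists hold thresholds of 0.01 (antibodies) and 0.005 (IgG). Read depth is unknown, so no interval is given. Signal was used to rank peaks within a list, and as it stands only where said.

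Only chromosomes 1 to 22, X and Y were used, which left out between 2.11% and 4.04% of a list. Overlap meant at least 1 bp. Windows were RefSeq spans plus 10 kb either side. Work was done in Python 3.11.15 with pandas 2.3.3, and overlap counting was tested on simulated data. The genes and lists were chosen with earlier results of these data known. All 8 keratins were named, the 3 genes of each other list with the highest BRG1 control peak outside IgG, and the 2 genes nearest to each keratin with peaks in at least 2 libraries. Those nearest to KRT19 are not reported here. Whether replicates were separate cultures is unstated, so the KO spread may be technical. Alternatives changed the window, list length, ranking, overlap rule for shared peaks, IgG overlap, peak width and KO library. The caller threshold was not varied.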

Additional observations from a re-analysis of the deposited data

How the results depend on the processing

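The differences in peak number summed over the 8 keratins kept their direction under every alternative run. For BRG1, KO mean minus control was −27.5 peaks and lay between −32 and −23 when either KO library was left out. It was −18.5 in gene spans alone, −43 with 25 kb flanks, −18 in the upper 50% of each list, and −9.5 and −1.5 in lists of equal length by total and by maximum signal. For Flag-actin it was −12.5, and between −13 and −12 without either KO library, −4.5 in spans alone, −5.5 with 2 kb flanks and in the upper 50% of each list, −7.5 and −7 in lists of equal length by total and by maximum signal, and −15 without peaks of 50 bp or less. BRG1 control minus IgG was 35 peaks, with 23 in spans alone, 58 with 25 kb flanks, 13 and 5 in lists of equal length and 19 in the upper 50%. Flag-actin control minus IgG was 17, with 7 in spans alone and in the upper 50%, 8 with 2 kb flanks, and 10 under both equal lengths. The BRG1 control peaks shared with Flag-actin numbered 7, with 4 in spans alone and with 2 kb flanks, 2 without peaks that overlapped the IgG of the same arm or of either arm, 3 without peaks of 50 bp or less and 13 within 500 bp. Of single genes, KO mean minus control at KRT8 for Flag-actin reversed to 0.5 with 25 kb flanks and by maximum signal, and KRT18 for BRG1 to 0.5 by maximum signal. By maximum signal the BRG1 difference at KRT8 was −0.5, against −12 in the full lists, and that at KRT7 was 0, against −4. The cause was not tested. No paired analysis was possible because no result comes from a test and each antibody has 1 control library.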

Other observations

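Some pseudogene copies of the keratin genes also held peaks, and the 5 of KRT19 held 0 in any list. Of the 52 KRT8 pseudogenes of the RefSeq table, Flag-actin peaks overlapped 2 in KO1 and 6 in KO2, against 8 in control cells (15.4%) and 1 in IgG of the Flag arm, where 2.90%, 4.31%, 5.13% and 2.23% of all 17051 pseudogenes had one. BRG1 peaks overlapped 2 in KO1 (3.85%) and 1 in KO2 (1.92%), against 1 in control cells (1.92%), where all pseudogenes stood at 2.08%, 2.87% and 4.59%. Of 68 KRT18 pseudogenes, BRG1 peaks overlapped 1 in KO1 and 3 in KO2, against 4 in control cells (5.88%), and Flag-actin peaks 2 in KO1 and 3 in KO2, against 2 in control cells (2.94%). Of 8 KRT17 pseudogenes, Flag-actin peaks overlapped 0 in KO1 and 3 in KO2, against 4 in control cells and 1 in IgG. The copies of all 4 genes are longer by median span than the 716 bp of all pseudogenes. The medians were 1729 bp for KRT8, 1388 bp for KRT18, 947 bp for KRT19 and 3598 bp for KRT17 copies. The part of length in these shares was not tested.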
